A study of Mus musculus with 15 samples.

Results

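The genes described here encode the aminoacyl-tRNA synthetases, 37 genes in all, taken as a list of names out of the 55266 genes of the series. Of these, 21 encode enzymes that work in the cytosol and 16, with a 2 at the end of the symbol, encode enzymes of the mitochondrion. Members were found by gene symbol in GENCODE M21, an annotation of mouse genome GRCm38, in which Mars1 still carries the older symbol Mars. The list itself rests on names and not on measured values, but it was chosen with earlier results of these data known.

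RNA was sequenced from NIH3T3, a widely used fibroblast line from mouse embryos, in 5 groups of 3 libraries. All cells carried a stable, doxycycline-inducible fusion of histone H2A and were starved. The first group expressed H2A-TerminaTOR, a genetically encoded inhibitor of the kinase complex mTORC1 that the histone places in the nucleus, and received cycloheximide, which blocks translation, together with the growth factor PDGF. The other groups expressed the control fusion H2A-mCherry and received cycloheximide with PDGF, rapamycin with PDGF (rapamycin inhibits mTORC1), PDGF alone, or no PDGF. There is 1 cell line per fusion, so a difference between the lines and an effect of TerminaTOR cannot be told apart. The level of TerminaTOR was not measured here. The sources used here give no doses or times, nor how long the cells were starved or whether each line is a single clone. Nothing in the labels says that replicates are separate cultures. The p-values therefore weigh a difference between groups only against the variation among these libraries, and that variation may be technical.

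A synthetase joins an amino acid to the tRNA that carries the matching anticodon, and each enzyme serves 1 amino acid, except that Eprs encodes a fused enzyme for glutamate and proline. Animal cells keep separate cytosolic and mitochondrial enzymes for most amino acids, all encoded in the nucleus. Gars, for glycine, and Kars, for lysine, are exceptions: each gene gives both the cytosolic and the mitochondrial enzyme. Several cytosolic synthetases, among them those encoded by Dars, Eprs, Iars, Kars, Lars, Mars1, Qars and Rars, sit together in a multi-synthetase complex. The transcription factor ATF4, made when amino acids run short and also downstream of mTORC1, is known to induce many cytosolic synthetase genes together with amino acid transporters and amino acid synthesis enzymes. The mitochondrial enzymes are not usually counted among its targets.

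Libraries held between 3466202 and 6777780 counted reads. The authors counted reads per transcript, and only reads that fit a single transcript were counted, so a gene's level reflects the stretches that no other of its transcripts shares. Cytosolic synthetases took 0.272 to 0.498% of a library's reads and mitochondrial ones 0.0129 to 0.0212%. Of the 10 fibroblast markers examined, none was at 0 in all libraries, and their summed level was 8618 to 9150 CPM in TerminaTOR libraries, 7571 to 7916 with cycloheximide, 4643 to 5027 with rapamycin, 7312 to 7637 with PDGF alone and 8428 to 8517 without PDGF. CPM is a gene's count scaled to a common library size with TMM (trimmed mean of M-values) factors. Summed levels of 6 epithelial and 5 endothelial markers stayed between 0.475 and 4.73 CPM. Those of 7 macrophage markers were 60.7 to 72.0 CPM with TerminaTOR and cycloheximide, 61.8 to 78.0 with cycloheximide, 18.1 to 20.4 with rapamycin, 17.6 to 19.5 with PDGF and 7.09 to 12.0 without PDGF. Only 3 of these 7 had enough reads for edgeR's test. With cycloheximide against PDGF alone, 1 of the 3, Fcgr1, was called higher and 0 lower. Of 8 fibroblast markers tested, 3 were higher and 4 lower with PDGF against no PDGF. The sums thus mix unlike genes and are not read as amounts of a cell type. The part of the shifts in these sums in the results below was not tested. In such bulk RNA, fewer cells of a type and less RNA per cell cannot be told apart.

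Enough reads for a test were found for 31 of the 37 members, 20 cytosolic and 11 mitochondrial. The 6 others had few reads over all 15 libraries: 11 for Farsb, 39 for Fars2, 36 for Lars2, 0 for Pars2, 15 for Rars2 and 28 for Vars2. Of the 36 Lars2 reads, 24 came from the libraries without PDGF. A member can pass this filter through the group where it is high. Counts below are given as counts of the members tested, which does not undo that selection. Cars2 reached the filter's level in 3 libraries without PDGF and 2 with rapamycin, and Wars in 3 with PDGF alone and 1 with rapamycin. Tars, Iars, Mars1, Vars and Wars reached it in no library with cycloheximide. An exon of 13 of the 37 members overlaps an exon of a gene on the opposite strand and the sources used here do not say if the kit marked strand, so such reads are uncertain. Among these are Hars and Hars2, which overlap each other, and Mars1, which overlaps the ATF4 target Ddit3.

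Cytosolic and mitochondrial synthetase RNAs moved differently with PDGF and with cycloheximide. With PDGF, 11 of 20 cytosolic genes were called higher and none lower (edgeR's quasi-likelihood test, Benjamini-Hochberg adjusted p under 0.05), while 20.1% of all 10603 genes tested were called higher and 16.9% lower. Of 11 mitochondrial genes, 1 was higher and 4 were lower. With cycloheximide added to PDGF, 15 of 20 cytosolic genes were lower and 1 was higher, against 19.6% lower and 21% higher among all genes, and of the mitochondrial genes 1 was lower and 2 were higher. The median log2 change of the cytosolic genes was 0.69 with PDGF and -1.20 with cycloheximide, that of the mitochondrial genes -0.48 and 0.07, and that of all genes -0.01 and 0.01. The cycloheximide medians mix reads from exons and introns, in shares that differ between the sets. In exonic reads they were -0.29 for 11 cytosolic and 0.38 for 8 mitochondrial genes, against 0.08 for all. In intronic reads they were -2.98 for 17 cytosolic and -0.86 for 4 mitochondrial genes, against -0.35 for all (the split is described further on). The comparisons with PDGF and with cycloheximide use the same 3 PDGF libraries, once as the treated group and once as the baseline.

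**Figure D1:**
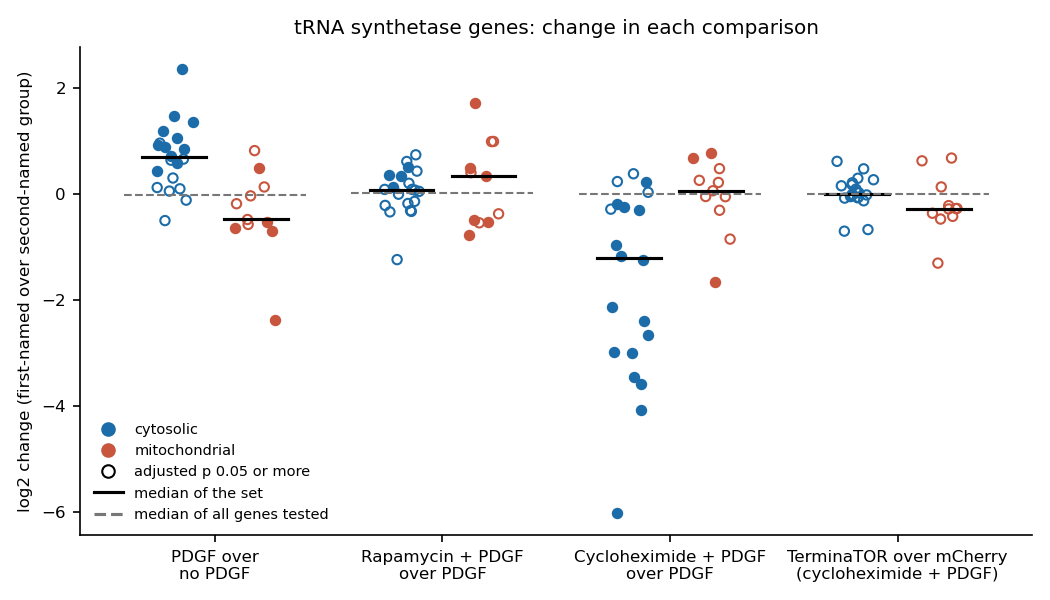
Log2 change (vertical axis) of each of the 20 cytosolic (blue) and 11 mitochondrial (red) synthetase genes tested, in 4 comparisons (horizontal axis). Each point is a gene, filled where the adjusted p is under 0.05; bars mark the medians of each set and dashed lines those of all 10603 genes. The cytosolic genes lie mostly above the dashed line with PDGF and below it with cycloheximide, where they reach -6.02 (Tars).

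Cytosolic genes known as ATF4 targets, a list also chosen with earlier results of these data known, carried most of these calls. Of the 12 such genes, all tested, 10 were higher with PDGF (median log2 change 0.91) and all 12 were lower with cycloheximide (median -2.82), against the 20.1% higher and 19.6% lower of all genes given above. The size of the cycloheximide median depends on where the reads lie: in exonic reads it was -0.99 over the 7 of these genes with enough of them, all lower, and in intronic reads -3.52 over 12, all lower (the split is described further on). Of the 8 other cytosolic genes tested, 1 was higher with PDGF (median 0.22), and with cycloheximide 3 were lower and 1 was higher (median -0.10). Of the 8 enzymes of the multi-synthetase complex, 3 were higher with PDGF (Eprs, Lars and Rars), and with cycloheximide 5 were lower and 1 was higher, where 20.1% of all genes were higher with PDGF and 19.6% lower and 21% higher with cycloheximide.

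A motif was looked up in the members' promoters. The sequence searched was TGATGNAA, the core of the element that ATF4 binds with C/EBP partners, on both strands from 250 bases before to 50 bases after the start site in RefSeq promoters of GRCm38.p6. It is present in 3.97% of the 32851 promoters of that length, in 5 of the 8 matched promoters of ATF4-linked cytosolic synthetases (62.5%), in 0 of 6 of the other cytosolic ones and in 0 of 15 mitochondrial ones. For comparison, 8 of 29 promoters of the ATF4-linked genes that are not synthetases hold it (27.6%). RefSeq promoters were matched for 14 cytosolic and 14 mitochondrial genes; Cars, Hars, Lars, Nars, Rars, Vars, Wars, Hars2 and Pars2 had none in the table. Such a match is a description of letters, not a binding site. The windows below are those of the 5 ATF4-linked synthetases that hold the motif and of Asns, an ATF4 target for comparison. All 12 ATF4-linked synthetases were lower with cycloheximide, whether or not a motif was found, so that fall does not set these 5 apart. Each window has 30 bases, 5′ to 3′ on the strand of the gene, with the 8 motif bases in capitals. They lie at chr4:129189895-129189924 for Yars, chr6:55037960-55037989 for Gars, chr8:111033840-111033869 for Aars and chr13:49682126-49682155 for Iars, all on the plus strand, and at chr15:11399655-11399684 for Tars and chr6:7693214-7693243 for Asns, asparagine synthetase, both on the minus strand. Those of Yars and Asns read the motif on the gene's strand and those of the others on the opposite strand. Aars holds a second match, not shown, at chr8:111033719-111033748.
Yars: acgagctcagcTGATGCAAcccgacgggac
Gars: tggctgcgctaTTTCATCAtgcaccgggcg
Aars: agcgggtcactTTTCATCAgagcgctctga
Iars: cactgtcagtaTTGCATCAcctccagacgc
Tars: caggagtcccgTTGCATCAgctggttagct
Asns: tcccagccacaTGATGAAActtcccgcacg

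Against no PDGF, the cytosolic gene called with the lowest adjusted p with PDGF was Rars, for arginine, which lies at chr11:35808381-35834506 on the minus strand (GRCm38, GENCODE M21). Rars had 283, 308 and 289 CPM with PDGF, against 147, 135 and 141 CPM without. The groups stood far apart, and the 2.08-fold rise had a log2 change of 1.06 (SE 0.07, adjusted p 6.77e-21). Gars, for glycine (chr6:55038007-55079500, plus strand), had 1305, 1292 and 1355 CPM with PDGF, against 765, 841 and 785 CPM without, a 1.65-fold rise (log2 0.73, SE 0.06, adjusted p 3.63e-18). Yars, for tyrosine (chr4:129189760-129219607, plus strand), had 264, 261 and 269 CPM with PDGF, against 138, 146 and 146 CPM without, a 1.85-fold rise (log2 0.88, SE 0.08, adjusted p 9.25e-16). The 3 PDGF libraries of each gene were tightly grouped and above every library without PDGF.

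Eprs, the fused glutamate and proline enzyme (chr1:185363044-185428360, plus strand), rose 1.51-fold with PDGF: it had 773, 767 and 785 CPM with PDGF, against 476, 556 and 513 CPM without (log2 0.59, SE 0.06, adjusted p 5.05e-13). Aars, for alanine, rose less, with 1381, 1449 and 1508 CPM, against 1052, 1107 and 1033 CPM without PDGF (log2 0.44, SE 0.06, adjusted p 3.5e-09). Sars, for serine, rose 1.81-fold, with 84.3, 79.6 and 77.3 CPM, against 42.9, 38.6 and 51.6 CPM without PDGF (log2 0.85, SE 0.12, adjusted p 2.07e-08). None of these groups overlapped.

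Cars, for cysteine, and Nars, for asparagine, rose 2.29-fold and 2.78-fold with PDGF. Of their counted reads, 66.7% for Cars and 100% for Nars were intronic (the split is described further on). Cars had 42.4, 29.5 and 29.4 CPM with PDGF, against 11.1, 13.7 and 19.1 CPM without (log2 1.20, SE 0.19, adjusted p 2.47e-07). Nars had 27.0, 24.6 and 23.2 CPM with PDGF, against 6.18, 10.3 and 10.5 CPM without (log2 1.48, SE 0.24, adjusted p 3.6e-07). Tars (log2 1.37), Lars (0.93) and Wars (2.36) complete the 11 called higher. Intronic reads made up 100% of those of Tars and Wars and 77.3% of those of Lars. The rises of Nars, Tars and Wars thus describe reads within introns, while Cars and Lars were also called higher in exonic reads. The Wars call rested on few reads and was lost without PDGF replicate 1 (adjusted p 0.0527). Wars was also tested mainly because of its level in the PDGF libraries. The 9 not called ranged from -0.50 (Tarsl2, a second threonine enzyme) to 0.97 (Iars). For Dars, the aspartate enzyme, the change was -0.11 (adjusted p 0.284), with 145, 157 and 132 CPM with PDGF, against 155, 159.7 and 154 CPM without. Scaling by library size alone kept 11 genes called higher and added 2 called lower, Dars and Tarsl2.

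**Figure D2:**
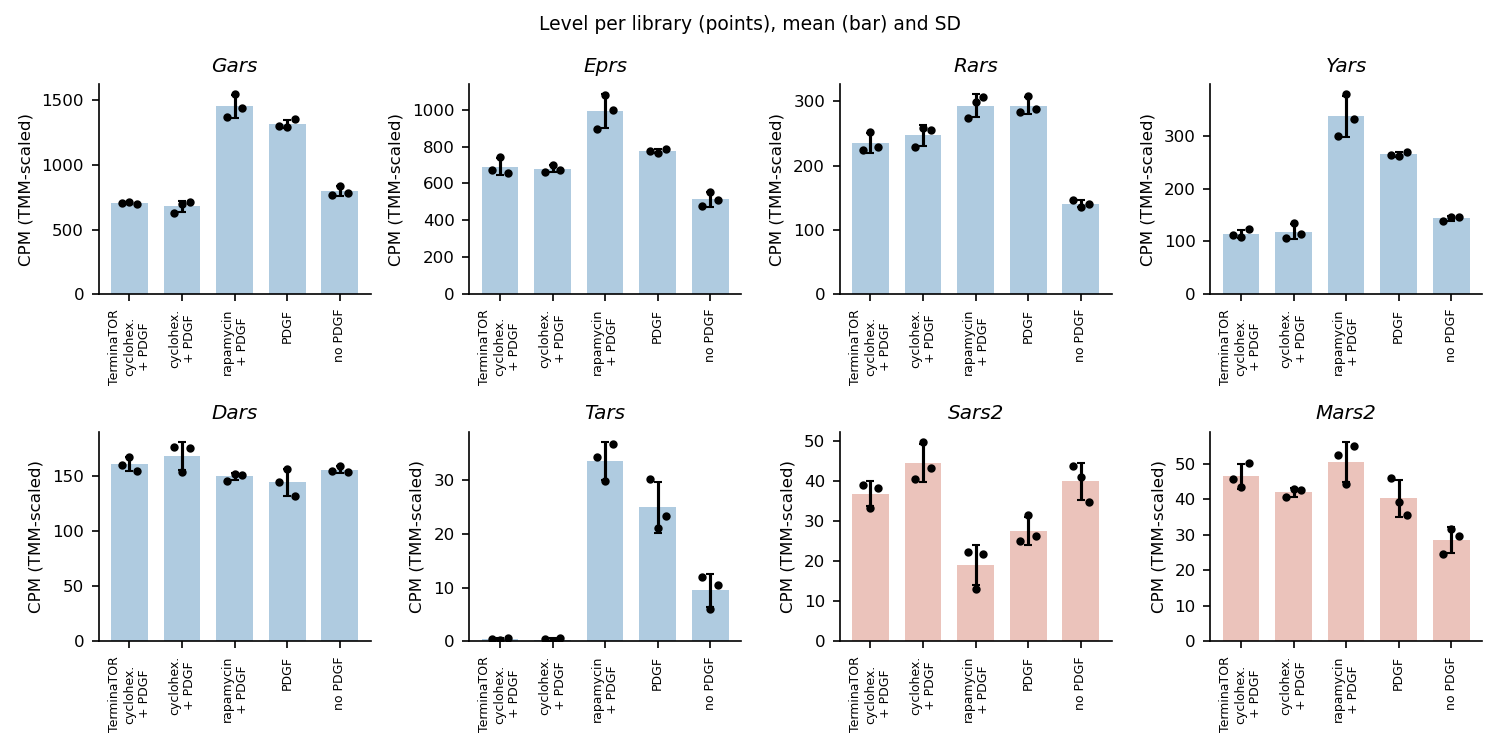
TMM-scaled CPM (vertical axis, from 0) of 6 cytosolic (blue) and 2 mitochondrial (red) synthetase genes in the 5 groups; points are libraries, bars the mean and whiskers the SD of 3 libraries. Gars, Eprs, Rars and Yars are higher with PDGF than without, Tars has at most 0.610 CPM in every library with cycloheximide, and Sars2 is lower with PDGF than without.

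Mitochondrial genes were lower or not called with PDGF, except Mars2, for methionine (the count of higher genes was 2 without the no-PDGF replicate 2). Mars2 had 46.0, 39.3 and 35.6 CPM with PDGF, against 24.5, 31.6 and 29.7 CPM without, a rise of 1.40-fold (log2 0.49, SE 0.14, adjusted p 0.00329); with library-size scaling that call was lost, at log2 0.24. Sars2, for serine (chr7:28741992-28753871, plus strand), fell, with 25.1, 31.5 and 26.3 CPM with PDGF, against 44.0, 41.0 and 35.0 CPM without (log2 -0.53, SE 0.15, adjusted p 0.00349). Iars2, for isoleucine, fell, with 22.6, 21.7 and 22.4 CPM, against 35.2, 39.9 and 32.4 CPM without PDGF (log2 -0.69, SE 0.16, adjusted p 0.000375). For each of the 3 genes, all PDGF libraries lay on the same side of all libraries without PDGF.

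Cars2, for cysteine, showed the largest change among the mitochondrial genes tested. It had 1.38, 1.81 and 1.45 CPM with PDGF, against 9.08, 6.76 and 8.41 CPM without, and was 5.18-fold lower (log2 -2.37, SE 0.48, adjusted p 3.55e-05). This rests on 19 reads with PDGF and 126 without, nearly all from transcripts that lie in introns. Cars2 reached the filter's level in no library with PDGF alone, so its fall comes with that selection. Aars2, for alanine, had 7.71, 8.01 and 7.46 CPM with PDGF, against 11.3, 13.3 and 11.4 CPM without (log2 -0.63, SE 0.25, adjusted p 0.0434). The groups did not overlap, but leaving out any of the 6 libraries ended the Aars2 call (adjusted p 0.0544 to 0.141). For serine, alanine and cysteine the cytosolic and the mitochondrial gene thus moved in opposite directions, Sars, Aars and Cars up and Sars2, Aars2 and Cars2 down; for Iars, whose partner Iars2 fell, the change of 0.97 was not called (adjusted p 0.103).

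**Figure D3:**
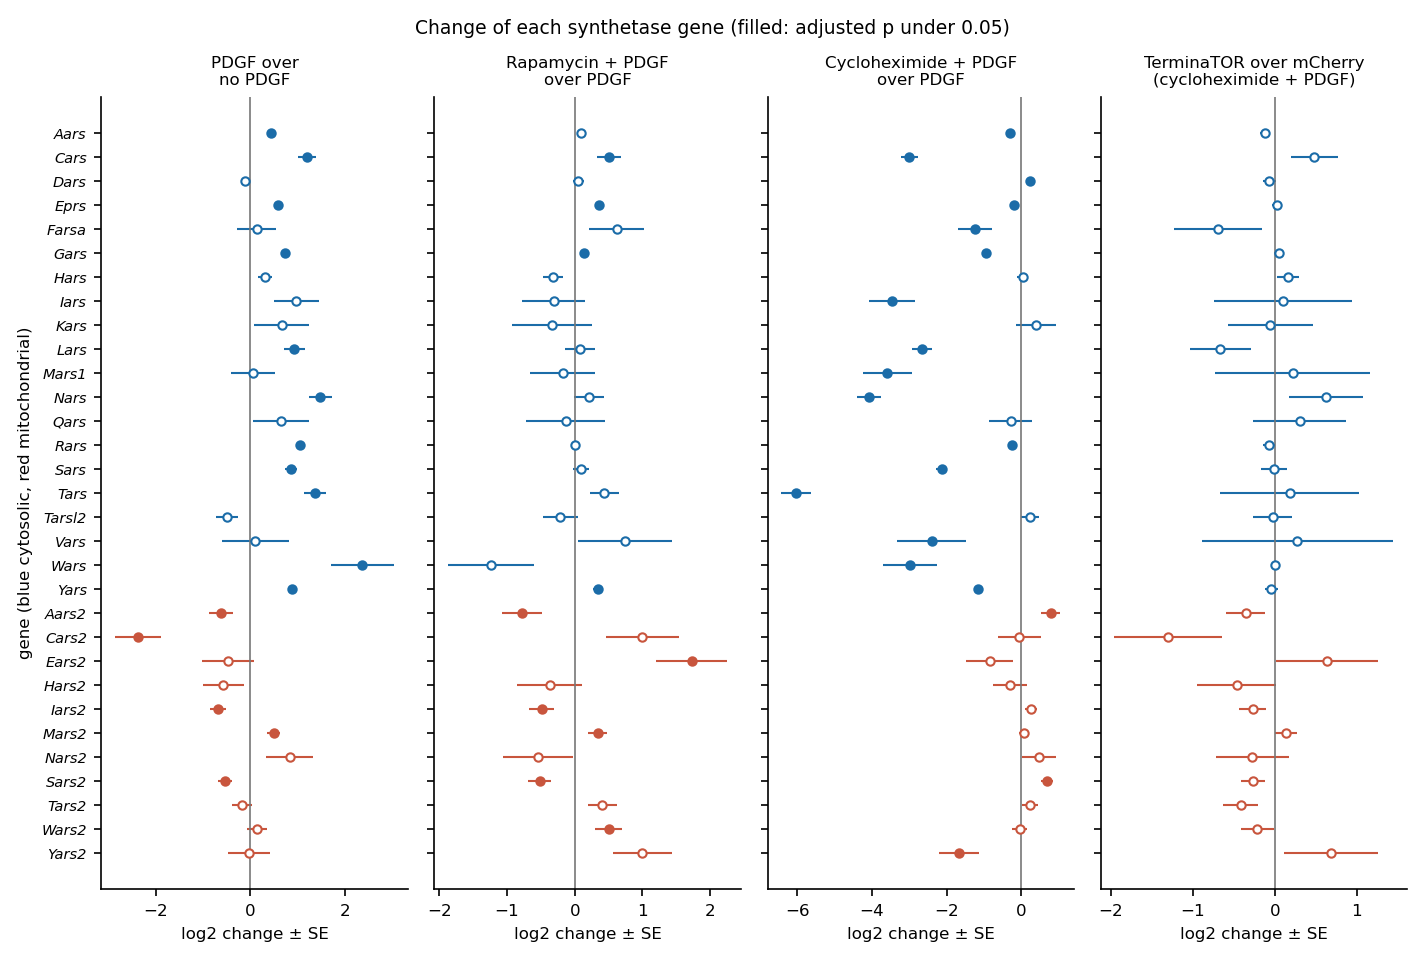
Log2 change ± SE (horizontal axes) of each of the 31 synthetase genes tested (vertical axis, cytosolic in blue above, mitochondrial in red below) in 4 comparisons, one per panel; filled points have an adjusted p under 0.05, and points within 0.01 of 0 carry no SE. The cycloheximide panel spans the widest range, and the TerminaTOR panel holds no filled point.

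Cycloheximide with PDGF against PDGF alone gave the largest falls. Tars, for threonine (chr15:11382301-11399665, minus strand), had 0.414, 0 and 0.576 CPM with cycloheximide, from 2, 0 and 3 reads, against 30.3, 21.2 and 23.4 CPM with PDGF alone, from 110, 82 and 113 reads. It was 65-fold lower (log2 -6.02, SE 0.40, adjusted p 1.76e-21), and all 3 libraries with cycloheximide lay near 0. Every counted Tars read came from intronic transcripts annotated as retained introns, 61.8% of them from Tars-205, so the fall describes those RNAs and not the coding mRNA. Nars had 0.414, 3.03 and 1.15 CPM with cycloheximide, against 27.0, 24.6 and 23.2 CPM with PDGF, and was 17-fold lower (log2 -4.08, SE 0.32, adjusted p 5.56e-18); its reads too were over 90% intronic.

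Gars, Yars, Eprs, Aars and Rars, read mainly from exons, had smaller falls than Tars and Nars. Gars had 628, 696 and 714 CPM with cycloheximide, against 1305, 1292 and 1355 CPM with PDGF, and was 1.94-fold lower (log2 -0.96, SE 0.06, adjusted p 8.32e-24). Yars had 106, 134 and 114 CPM, against 264, 261 and 269 CPM with PDGF, and was 2.25-fold lower (log2 -1.17, SE 0.08, adjusted p 7.94e-21). Both groups were well separated in each gene. Eprs, Aars and Rars were lower by small amounts. Eprs had 664, 702 and 672 CPM with cycloheximide, against 773, 767 and 785 CPM with PDGF (log2 -0.19, adjusted p 0.00892), Aars had 1093, 1278 and 1169 CPM, against 1381, 1449 and 1508 CPM (log2 -0.29, adjusted p 3.47e-05), and Rars had 228, 259 and 255 CPM, against 283, 308 and 289 CPM (log2 -0.25, adjusted p 0.00329).

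Sars, Cars and Lars have reads from both exons and introns. Sars had 14.9, 19.7 and 20.4 CPM with cycloheximide, against 84.3, 79.6 and 77.3 CPM with PDGF, 4.39-fold lower (log2 -2.13, SE 0.14, adjusted p 3.84e-22). Cars had 4.55, 3.28 and 4.61 CPM, against 42.4, 29.5 and 29.4 CPM with PDGF, 7.96-fold lower (log2 -2.99, SE 0.23, adjusted p 2.21e-18). Lars, for leucine, had 4.14, 3.28 and 2.30 CPM, against 27.0, 16.8 and 18.0 CPM with PDGF, 6.32-fold lower (log2 -2.66, SE 0.28, adjusted p 5.07e-13). No library with cycloheximide reached the lowest PDGF library in any of the 3 genes.

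The remaining falls rest on fewer reads. Iars had 7 reads with cycloheximide and 69 with PDGF (log2 -3.46, SE 0.62, adjusted p 3.42e-06). Mars1 had 5 and 56 reads in the same groups (log2 -3.58, SE 0.66, adjusted p 6.93e-06), and Wars had 7 and 50 (log2 -2.98, SE 0.73, adjusted p 0.000528). Farsa (-1.24) and Vars (-2.40) were also called, but Farsa lost the call without PDGF replicate 2 or cycloheximide replicate 2 or 3 (adjusted p 0.0712 to 0.11) and Vars without PDGF replicate 2 or 3 or cycloheximide replicate 1 or 2 (0.0744 to 0.122). Dars was the gene called higher, with 177, 154 and 176 CPM with cycloheximide, against 145, 157 and 132 CPM with PDGF. Its groups overlapped, the change was small (log2 0.23, SE 0.08, adjusted p 0.0159), and without PDGF replicate 1 or 3 or cycloheximide replicate 1 or 3 it was not called (0.0691 to 0.161). Hars, Kars, Qars and Tarsl2 were not called, with log2 changes of 0.04, 0.39, -0.28 and 0.24.

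Reads were split into those outside and those within introns of the same gene. This split was made after the values were seen. A transcript was taken as exonic when at most 20% of its single-transcript bases lie inside introns of a protein-coding transcript of the gene, and as intronic when at least 80% do. The split goes by position and not by annotated type. All Yars2 reads and 25.6% of the Nars reads, intronic here, come from transcripts annotated as protein-coding. All Ears2 reads, exonic here, come from a retained intron. Intronic transcripts held over 90% of the reads of 8 of the 20 cytosolic genes (Farsa, Iars, Kars, Mars1, Nars, Qars, Tars and Wars) and of 2 of the 11 mitochondrial ones (Cars2 and Yars2). With cycloheximide, 8 of 11 cytosolic genes with enough exonic reads were lower in those reads and 1 was higher (median log2 change -0.29; 16% of all exonic features lower and 24% higher, median 0.08). In intronic reads, 13 of 17 were lower and none higher (median -2.98; 27.5% of all intronic features lower and 9.52% higher, median -0.35). Intronic transcripts took 5.32 to 5.77% of a library's reads with cycloheximide and 6.98 to 7.66% with PDGF; the part of this shift in the result was not tested.

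Yars shows the contrast within a gene. Its exonic reads stood at 103, 131 and 111 CPM with cycloheximide, against 219, 230 and 233 CPM with PDGF, 1.99-fold lower (edgeR's test on the split reads, log2 -0.99, SE 0.09, adjusted p 4.66e-16). Its intronic reads stood at 3.10, 3.28 and 2.88 CPM, against 45.7, 30.5 and 35.4 CPM with PDGF, 12-fold lower (log2 -3.58, SE 0.25, adjusted p 2.75e-21). The difference between the intronic and the exonic change was tested with limma on the log2 ratio per library and came to -2.54 (SE 0.34, adjusted p 2.16e-11).

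The same test called 6 of the 11 members with enough reads in both places, all with the larger fall within introns, while it called 15.6% of the 1522 genes tested in that direction (median difference of all -0.45). Sars differed by -1.71 (SE 0.32, adjusted p 5.11e-06): its exonic reads fell 2.41-fold, and its intronic reads stood at 5.58, 7.56 and 6.72 CPM with cycloheximide, against 52.6, 50.4 and 53.2 CPM with PDGF. Cars differed by -2.49 (SE 0.63, adjusted p 0.00176), Aars by -1.73 (SE 0.46, adjusted p 0.00353) and Gars by -2.95 (SE 0.86, adjusted p 0.00856). For Gars the intronic reads numbered 2, 0 and 1 with cycloheximide, against 15, 22 and 30 with PDGF, a count ratio of 0.0394 with an exact 95% interval of 0.00793 to 0.12 for counting error. Iars2 was the mitochondrial gene among the 6, at -2.50 (SE 0.85, adjusted p 0.0287), with 4 intronic reads with cycloheximide and 22 with PDGF, while its exonic change of 0.36 was not called. The difference was not called for Dars (0.43), Eprs (-0.39), Lars (-0.73), Rars (-0.02) and Tars2 (-0.31).

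**Figure D4:**
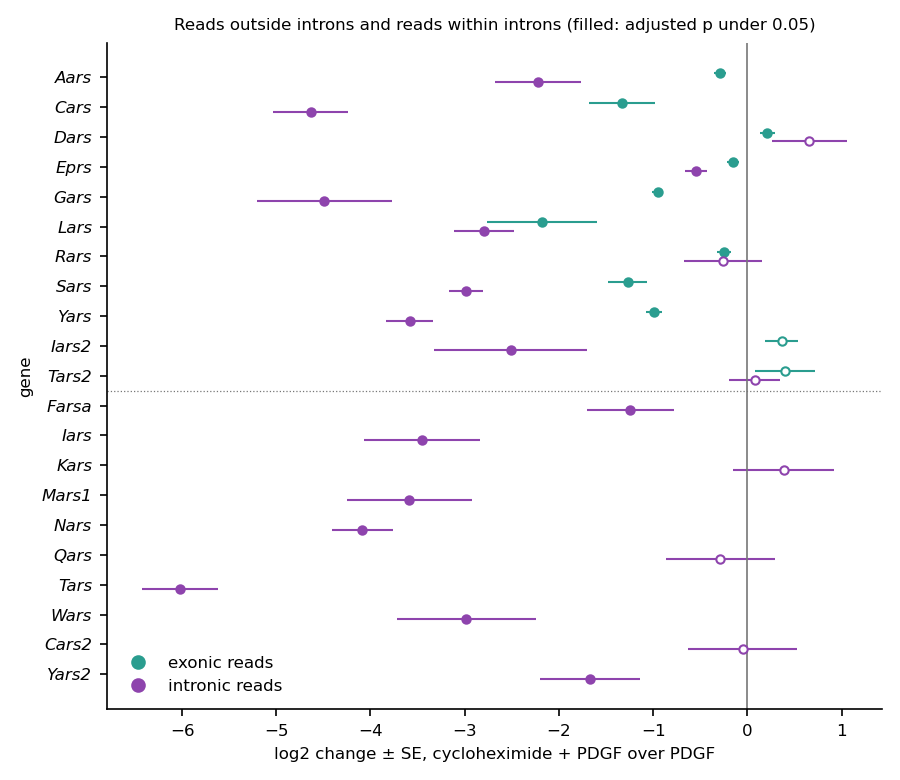
Log2 change ± SE, cycloheximide with PDGF over PDGF (horizontal axis), of exonic (green) and intronic (purple) reads of each synthetase gene with intronic reads (vertical axis); filled points have an adjusted p under 0.05. The 11 genes with both kinds of reads stand above the dotted line and the 10 with intronic reads alone below it; in Yars the 2 kinds lie at -0.99 and -3.58.

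With PDGF against no PDGF no such difference was called: 0 of the 11 members by limma, 2 of them (Eprs and Tars2) with an unadjusted p under 0.05, and 1.58% of all genes in that direction. Exonic reads were higher with PDGF in 8 of 11 cytosolic genes (19.8% of all exonic features, median of the 11 genes 0.70) and intronic reads in 9 of 17 (17.6% of all intronic features, median of the 17 genes 0.92). None was lower in either place, against 18.4% of all exonic and 11.6% of all intronic features.

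Among mitochondrial genes, cycloheximide with PDGF had 2 higher calls and 1 lower call against PDGF alone. Sars2 rose 1.61-fold, with 40.5, 49.9 and 43.4 CPM with cycloheximide, against 25.1, 31.5 and 26.3 CPM with PDGF (log2 0.69, SE 0.15, adjusted p 0.000146). Aars2 rose 1.72-fold, with 13.2, 11.6 and 15 CPM, against 7.71, 8.01 and 7.46 CPM with PDGF (log2 0.79, SE 0.25, adjusted p 0.0093), a call lost without cycloheximide replicate 3 (adjusted p 0.0588). Yars2, for tyrosine, had 16 reads with cycloheximide and 46 with PDGF (log2 -1.67, SE 0.53, adjusted p 0.00893), and this call was lost without PDGF replicate 2 or cycloheximide replicate 3 (adjusted p 0.0738 to 0.078). The Yars2 reads were over 90% intronic by position, though annotated as protein-coding. The reads of Sars2 and Aars2 were exonic by 99.7% and 98.1%. In exonic reads 2 of 8 mitochondrial genes were higher and 0 lower (24% and 16% of all exonic features). In intronic reads 0 of 4 were higher and 2 lower (9.52% and 27.5% of all intronic features). For serine and alanine the cytosolic and mitochondrial genes were again opposite in sign.

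Rapamycin with PDGF against PDGF alone gave a share of higher calls among cytosolic genes near that of all genes. Of 20 genes, 4 were higher and none lower (median log2 change 0.08), against 16.3% higher and 16.1% lower among all genes. With library-size scaling 2 were higher and 1 lower. All 4 were among the 12 ATF4-linked genes, and 0 of the 8 others tested was called. With protein-coding transcripts only, 5 of 8 ATF4-linked genes were higher, against 1465 of all 6499 genes. With library-size scaling or no filter on low counts, 2 of the 12 were higher. Eprs had 897, 1079 and 997 CPM with rapamycin, against 773, 767 and 785 CPM with PDGF, 1.28-fold higher (log2 0.35, SE 0.06, adjusted p 1.85e-06). Yars had 299.7, 378 and 332 CPM, against 264, 261 and 269 CPM with PDGF, 1.27-fold higher (log2 0.35, SE 0.08, adjusted p 0.000172). Both genes were above PDGF in all 3 rapamycin libraries.

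Cars (log2 0.51, SE 0.18, adjusted p 0.02) and Gars (log2 0.14, SE 0.06, adjusted p 0.0461) were called higher with rapamycin less firmly. Cars had 54.3, 43.1 and 45.8 CPM with rapamycin, against 42.4, 29.5 and 29.4 CPM with PDGF, and Gars had 1369, 1546 and 1445 CPM, against 1305, 1292 and 1355 CPM. Cars lost the call without PDGF replicate 2 or 3 or rapamycin replicate 1 (adjusted p 0.118 to 0.141), and Gars without any PDGF library or rapamycin replicate 2 or 3 (0.0712 to 0.29). The count of cytosolic genes called higher was 2 without PDGF replicate 2 or 3. No cytosolic gene was called lower, except 1 without PDGF replicate 1. Rars was not called, with 274, 299 and 307 CPM with rapamycin, against 283, 308 and 289 CPM with PDGF (adjusted p 0.996).

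Eprs differed between reads outside and within introns under rapamycin. Its exonic reads were higher (edgeR's test on the split reads, log2 0.41, adjusted p 8.32e-08), while its intronic reads were lower, at 56.5, 72.3 and 67.2 CPM with rapamycin, against 88.7, 73.9 and 89.3 CPM with PDGF (log2 -0.37, SE 0.12, adjusted p 0.0111). The difference of -0.78 (limma, SE 0.21, adjusted p 0.00993) was the 1 call among 11 members, against 1.51% of all genes called in that direction. Over the cytosolic genes with rapamycin, 3 of 11 were higher and 0 lower in exonic reads (15.7% and 19.5% of all exonic features), and 0 of 17 higher and 1 lower in intronic reads (13.6% and 5.36% of all intronic features). Intronic transcripts as a whole took 8.51 to 8.99% of reads with rapamycin and 6.98 to 7.66% with PDGF; the part of that shift in the Eprs result was not tested.

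Mitochondrial genes were split under rapamycin, with 3 of 11 higher and 3 lower against PDGF alone (median log2 change 0.34). Calls among all genes were split as well, with 16.3% higher and 16.1% lower. Sars2 had 22.3, 13.2 and 21.9 CPM with rapamycin, against 25.1, 31.5 and 26.3 CPM with PDGF (log2 -0.52, SE 0.17, adjusted p 0.0148). Iars2 had 15.6, 15.4 and 16.4 CPM, against 22.6, 21.7 and 22.4 CPM with PDGF (log2 -0.49, SE 0.18, adjusted p 0.0314). Aars2 had 4.73, 2.77 and 5.70 CPM, against 7.71, 8.01 and 7.46 CPM with PDGF (log2 -0.78, SE 0.30, adjusted p 0.0395). These are genes that were also lower with PDGF than without, and in each of them the rapamycin libraries lay below all PDGF libraries; the 2 comparisons share the PDGF libraries.

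Ears2, for glutamate, was 3.31-fold higher with rapamycin, with 9.19, 4.31 and 5.70 CPM, against 2.75, 2.58 and 0.621 CPM with PDGF (log2 1.73, SE 0.52, adjusted p 0.00685); its reads come from a transcript annotated as a retained intron. Wars2, for tryptophan, had 21.2, 25.8 and 21.4 CPM with rapamycin, against 17.4, 14.0 and 16.8 CPM with PDGF (log2 0.50, SE 0.20, adjusted p 0.0461). Mars2 was the third higher gene (log2 0.34, adjusted p 0.048), with overlapping groups, at 52.4, 44.3 and 55.1 CPM, against 46.0, 39.3 and 35.6 CPM.

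Each of these 6 mitochondrial calls was lost when at least 1 library was left out. The call was lost for Sars2 without PDGF replicate 2 (adjusted p 0.103) or rapamycin replicate 2 (0.171), for Ears2 without PDGF replicate 3 (0.0947) or rapamycin replicate 1 (0.0755), and for Mars2 without PDGF replicate 2 or 3 or rapamycin replicate 1 or 3 (0.117 to 0.265). It was lost for Iars2 and for Aars2 without any library but rapamycin replicate 3 (0.0561 to 0.0728 for Iars2, 0.0652 to 0.206 for Aars2), and for Wars2 without any of the 6 libraries (0.0567 to 0.19).

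TerminaTOR against mCherry, both with cycloheximide and PDGF, gave no call among the 31 members tested by edgeR's quasi-likelihood test, in which 2.35% of all genes were higher and 2.57% lower. DESeq2 also called 0 of them, and 1 cytosolic and 0 mitochondrial genes had an unadjusted p under 0.05 in edgeR's test. The median log2 change was 0.01 for the cytosolic genes (range -0.70 to 0.62) and -0.27 for the mitochondrial ones (range -1.30 to 0.68). Gars had 702, 713 and 695 CPM with TerminaTOR, against 628, 696 and 714 CPM with mCherry, a log2 difference of 0.05 with a 95% interval of -0.08 to 0.18 (adjusted p 0.739). Eprs had 673, 745 and 656 CPM, against 664, 702 and 672 CPM with mCherry, a difference of 0.03 with an interval of -0.11 to 0.16 (adjusted p 0.894). The libraries of the lines overlapped in both genes, which were picked after their values were seen.

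Aars, the cytosolic gene with the unadjusted p under 0.05 (0.0417, adjusted p 0.28), had 989, 1152 and 1109 CPM with TerminaTOR, against 1093, 1278 and 1169 CPM with mCherry. Its difference of -0.12 had an interval of -0.26 to 0.01, which includes 0 because it uses 10 degrees of freedom while edgeR's moderated p uses more. The groups overlapped. Tars stayed near 0 in both lines, with 0.468, 0.197 and 0.610 CPM with TerminaTOR, against 0.414, 0 and 0.576 CPM with mCherry, so that its interval was wide, from -1.71 to 2.06. For Sars2, with 39.0, 33.4 and 38.4 CPM with TerminaTOR, against 40.5, 49.9 and 43.4 CPM with mCherry, the groups did not overlap but no call was made (log2 -0.27, adjusted p 0.358). Aars2 (-0.36), Cars (0.48), Hars (0.16) and Mars2 (0.14) likewise had separate groups and no call. The share of all genes with separate groups is not given here, so these separations are not read as differences. In exonic reads (2.57% of all features higher and 2.61% lower), in intronic reads (0.51% and 1.43%) and in the difference between them (0.0657% of all genes), 0 members were called. By limma, 0 of the members had an unadjusted p under 0.05 for that difference. All of these values were measured under cycloheximide.

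Of the members' transcripts, 1 was called between the lines, but the share of all transcripts called is not given here. Nars-205, annotated as protein-coding but intronic by position, had 8, 1 and 6 reads in TerminaTOR libraries, against 0, 0 and 0 reads in mCherry libraries with cycloheximide (edgeR's test over all transcripts, adjusted p 0.00731). The Nars sum, higher in mean as well (log2 0.62), was not called (adjusted p 0.536). Nars-205 was singled out after its values were seen.

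Set against cells without PDGF, the groups that received PDGF with a drug differed between genes. With rapamycin and PDGF, 10 of 20 cytosolic genes were higher than without PDGF and 1, Tarsl2, was lower (median log2 change 0.86; 27.8% of all genes higher and 25.5% lower). The Tarsl2 call was lost without rapamycin replicate 1 or 3 (adjusted p 0.0731 to 0.103). Of the 11 mitochondrial genes, 4 were higher and 4 lower, with 2 higher without rapamycin replicate 1 or the no-PDGF replicate 1. With cycloheximide and PDGF, 4 cytosolic genes were higher and 11 lower than without PDGF (24.6% and 22.8% of all genes), with 2 higher without cycloheximide replicate 2 or the no-PDGF replicate 1 or 3. Most of these falls lie in intronic reads. In exonic reads, 2 of 11 cytosolic genes were higher and 2 lower (median log2 change -0.16), against 2103 and 1502 of all 7845 exonic features. In intronic reads, 1 of 17 was higher and 11 were lower (median -2.01), against 635 and 1196 of all 3920 intronic features. Rars remained higher with cycloheximide and PDGF, at 228, 259 and 255 CPM, against 147, 135 and 141 CPM without PDGF (log2 0.81, SE 0.07, adjusted p 8.62e-16), and Eprs was higher too (log2 0.40, SE 0.06, adjusted p 6.91e-08), a call lost with library-size scaling (log2 0.01, adjusted p 0.877). Gars was lower (log2 -0.23, adjusted p 0.000532), as was Yars (log2 -0.28, adjusted p 0.00264, but -0.16 and adjusted p 0.138 in exonic reads). Sars (-1.28) and Tars (-4.65) were far lower, with 61.1% and 100% of their counted reads intronic. Of the 11 mitochondrial genes, 2 were higher with cycloheximide and PDGF than without PDGF, Mars2 (0.56, adjusted p 0.000499) and Nars2 (1.31, adjusted p 0.0198), and 3 were lower, Cars2 (-2.42, adjusted p 1.35e-05), Iars2 (-0.42, adjusted p 0.0211) and Yars2 (-1.70, adjusted p 0.00515). With library-size scaling the calls of Mars2 and Nars2 were lost (adjusted p 0.3 and 0.0939), and the calls of Nars2, Iars2 and Yars2 were each lost when at least 1 library was left out (adjusted p 0.0548 to 0.164).

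Of 25 tested ATF4-linked genes that are not synthetases, 17 were higher and 0 lower with PDGF (median log2 change 0.92), and 21 were lower and 1 higher with cycloheximide (median -1.27), against 20.1% and 16.9% of all genes higher and lower with PDGF and 21% and 19.6% with cycloheximide. With rapamycin 7 were higher and 7 lower, against 16.3% and 16.1% of all genes. Slc7a1, a transporter of arginine and other basic amino acids, had 3209.6, 3249 and 3447 CPM with rapamycin, 2244, 2167 and 2135 CPM with PDGF and 619, 660.1 and 649 CPM without PDGF. It rose with PDGF (log2 1.76, adjusted p 2.17e-38), rose further with rapamycin (0.60, adjusted p 2.89e-14) and was lower with cycloheximide (-2.07, adjusted p 9.88e-42), at 471, 551 and 539 CPM. Trib3, a pseudokinase induced by ATF4, went the other way with rapamycin, at 602, 617 and 622 CPM, against 904, 967 and 989 CPM with PDGF (log2 -0.64, adjusted p 7.35e-12).

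Under TerminaTOR, 2 of these 25 genes were higher and 2 lower than with mCherry, where 2.35% of all genes were higher and 2.57% lower. Ddit3, a transcription factor of the stress response, had 69.0, 80.8 and 57.3 CPM with TerminaTOR, against 116, 93.5 and 116 CPM with mCherry (log2 -0.64, adjusted p 8.16e-05). Trib3 was lower (-0.32, adjusted p 0.00177) and Slc7a1 higher (0.22, adjusted p 0.0124), both with overlapping groups. Whether these genes and the synthetases differ was not tested. Atf4 itself had few countable reads, with group means of 1.39 to 3.00 CPM, and was called in none of the 4 comparisons.

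The counts in the lists below stand beside shares of all genes called higher and lower of 20.1% and 16.9% with PDGF, 16.3% and 16.1% with rapamycin, and 21% and 19.6% with cycloheximide. Of the noncatalytic parts of the multi-synthetase complex, Eef1e1 was higher with PDGF (log2 0.52, adjusted p 0.0133) and higher again with rapamycin, at 38.7, 41.2 and 40.1 CPM, against 23.4, 28.9 and 27.1 CPM with PDGF (log2 0.59, adjusted p 0.00344); Aimp1 was not called and Aimp2 not tested. Trnt1, which adds the CCA end that a synthetase charges, had 43.5, 39.0 and 42.3 CPM with PDGF, against 24.3, 29.0 and 32.0 CPM without (log2 0.55, adjusted p 0.00185). It was lower with cycloheximide (-0.58, adjusted p 0.00101). Of 4 mitochondrial helper genes, 2 were lower with PDGF: Gatb (-1.33, adjusted p 0.00328), a subunit of the enzyme that makes glutaminyl-tRNA in mitochondria, and Mtfmt (-1.93, adjusted p 0.029), which formylates the initiator methionyl-tRNA there. Of 12 tRNA modification genes tested, 2 were higher and 1 lower with PDGF, 5 higher and 0 lower with rapamycin, and 0 higher and 8 lower with cycloheximide. Trmt10c, a tRNA methyltransferase subunit of mitochondria, had 82.9, 93.5 and 79.9 CPM with cycloheximide, against 111, 123 and 126 CPM with PDGF (log2 -0.49, adjusted p 1.48e-05). Of 8 elongation factor genes tested, 3 were higher and 1 lower with PDGF, 2 higher and 1 lower with rapamycin, and 0 higher and 3 lower with cycloheximide, among them Eef2, the translocation factor (log2 -0.30, adjusted p 2.41e-07).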

How the data were processed

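Each of the 15 deposited files holds raw read counts for 142446 mouse Ensembl transcripts, not normalized, per the file contents. Poly(A) RNA from 1 µg of total RNA was converted with random hexamers, per the labels' protocols. Per the submitters' processing notes, tools were HTSeq 0.9.1, HISAT2 2.2.1 and R 4.1.0, and the build was hg38, which is human; the identifiers are mouse, and the sources used here give no mouse build or annotation. Identifiers were matched to GENCODE M21 (GRCm38): 141536 matched, and the 910 others held 0.0309% of counts and were dropped. Transcript counts were then added up per gene.

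Differences were tested with edgeR 4.0.16 in R 4.3.3 (quasi-likelihood test, robust, TMM scaling, filterByExpr, 10603 genes, all 15 libraries, 10 residual degrees of freedom), with Benjamini-Hochberg adjustment over all genes tested. The SE is the absolute log2 change over the square root of F, and 95% intervals use the t value at 10 degrees of freedom. Exonic and intronic reads were separate features of a further edgeR fit, and their difference was tested with limma 3.58.1 on the log2 ratio with 0.5 added to the reads. The scripts were tested on simulated counts.

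The interval of a count ratio covers counting error only; those of log2 changes include the spread between libraries. Library totals, 3466202 to 6777780, leave genes of a few reads with wide errors. The members and gene lists were chosen with earlier results of these data known. The text gives values per library for at most 8 cytosolic and 5 mitochondrial members per comparison, those called with the lowest adjusted p whose mean log2 CPM reaches 1, and for at most 3 called genes of each other list. Alternatives were DESeq2 1.42.0, library-size scaling, no filter, the 2 groups alone, a replicate block, protein-coding transcripts only, and each library left out in turn.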

Additional observations from a re-analysis of the deposited data

How the results depend on the processing

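Left-out libraries gave 11 cytosolic genes higher with PDGF each time, but not always the same 11. Wars lost its call without PDGF replicate 1, and Hars, not called with all libraries, was called when a library was left out. With cycloheximide 13 to 15 were lower, where Farsa and Vars lost their calls also with no filter. The ATF4-linked genes called lower with cycloheximide were 12 of 12 under each setting and 8 of 8 with protein-coding transcripts only, where 9 cytosolic genes in all were lower. Library-size scaling moved the median log2 change of all genes by -0.26 (PDGF), -0.10 (rapamycin), -0.13 (cycloheximide), 0.03 (TerminaTOR), and to -0.36 and -0.40 for rapamycin and cycloheximide against no PDGF; the share of calls that are higher became 30.7, 35.7, 39, 60.5, 31.6 and 26.8%, against 54.3, 50.3, 51.8, 47.7, 52.1 and 51.9% with TMM. With it, PDGF gave 2 cytosolic genes lower and 0 mitochondrial higher; rapamycin 2 cytosolic higher, 1 lower and 1 mitochondrial higher; cycloheximide 0 cytosolic higher. Against no PDGF it gave, for rapamycin, 3 cytosolic lower and 1 mitochondrial higher, and for cycloheximide 1 cytosolic higher, 0 mitochondrial higher and 5 lower, with Aars at -0.24 and Hars at -0.046 turned round. No filter gave 2 cytosolic and 1 mitochondrial higher with rapamycin, 0 cytosolic higher with cycloheximide, and against no PDGF 2 mitochondrial higher with rapamycin and 2 cytosolic higher with cycloheximide. Protein-coding transcripts only gave 0 cytosolic higher with cycloheximide and 1 with TerminaTOR (Nars), and 2 higher and 4 lower for cycloheximide against no PDGF. Without each library in turn, counts ran from 1 to 2 mitochondrial higher with PDGF; from 2 to 3 cytosolic higher, 0 to 1 lower, 0 to 2 mitochondrial higher and 0 to 3 lower with rapamycin; from 0 to 1 cytosolic higher, 1 to 2 mitochondrial higher and 0 to 1 lower with cycloheximide. Against no PDGF they ran from 0 to 1 cytosolic lower and 2 to 4 mitochondrial higher with rapamycin, and from 2 to 4 cytosolic higher and 1 to 2 mitochondrial higher with cycloheximide. Uncalled changes that crossed 0 when single libraries were left out were those of Qars with cycloheximide (-1.15 to 0.0054) and, for TerminaTOR, of Eprs (-0.032 to 0.060), Gars (-0.011 to 0.088) and Tars (-0.28 to 0.77). In intronic reads alone, chosen after seeing the data, Eprs was -0.37 with rapamycin and -0.059 with TerminaTOR, and Aars -1.77 with cycloheximide against no PDGF. Same-numbered libraries did not deviate together (correlations of -0.00149 to 0.076). This gives no sign that the numbers pair them, but libraries of different number were not compared, so pairing is not excluded. The replicate block left the count of cytosolic genes at 11 higher with PDGF and 15 lower with cycloheximide, and 4 mitochondrial genes were higher with rapamycin. Beyond the constructions named, the cause was not tested.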
